A study of Mus musculus with 6 samples.

Results

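The genes of mouse chromosome 16 that 4T1 cells express, taken in the order of their positions, differed in transcript level between the parental line (P) and a line resistant to axitinib (AxR). The members were the genes that the GRCm38 GENCODE annotation places on chromosome 16 and that had at least 10 estimated counts in at least 3 of the 6 libraries. They numbered 397 of the 13609 genes that met the same limit on all chromosomes, and every member was tested. Of the 1181 genes of chromosome 16 in the count table, 545 had no count in any library and 239 had counts below the limit. Among the members, 358 were protein-coding, 39 had another biotype, and 20 of those 39 were pseudogenes. The limit was met through P libraries alone by 7 members and through AxR libraries alone by 4, so those 11 had to differ between the lines. Rbm11, Samsn1 and Kalrn were among the 7, and G730013B05Rik, Trp63 and Mx2 among the 4. Just inside the limit was Gm37186, with 10, 11 and 3 counts in P and 11, 9 and 3 in AxR. Just outside it was Gm16892, with 11.7, 16.03 and 9 counts in P and 9, 8.02 and 7.04 in AxR.

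4T1 cells are a mouse mammary carcinoma line and form metastases in Balb/c mice, and axitinib is an inhibitor of VEGF receptor kinases. The AxR cells were derived in vivo from a metastatic lesion that arose after surgery in mice receiving 100 mg/kg/day axitinib, and were then cultured with 0.5 μM axitinib for over 2 months in RPMI with 5% FBS. P cells were the line from which they came, vehicle-treated by the methods of the study, although the growth note in the labels lists 0.5 μM axitinib for every sample. Each line had 3 stranded poly(A) libraries. AxR is a single derived line, and no source used here says whether the 3 libraries of a line came from separate cultures, so p-values and SDs measure the spread between these libraries only, which may be technical.

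Library totals lay between 15495260 and 17294525 estimated counts. Summed over Krt8, Krt18, Krt14, Epcam and Cdh1, markers of mammary epithelial carcinoma cells, the level was 1535 to 1694 CPM, which are counts scaled to a common library size, in P and 2318 to 2408 CPM in AxR. Leukocyte markers (Ptprc, Tyrobp, Fcer1g, Lyz2 and Cd68) summed to 3.46 to 3.78 CPM in P and 8.16 to 8.25 CPM in AxR, with Ptprc, Tyrobp and Fcer1g at 3 counts or fewer in every library. Endothelial and fibroblast markers summed to less than 1 CPM in every library. In bulk RNA, a smaller share of cells expressing a gene and less of its RNA per cell cannot be told apart.

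Mouse chromosomes have their centromere close to one end, at which positions are counted from the start, so low positions lie near the centromere. The far end of chromosome 16 carries many genes whose human counterparts sit on the chromosome that is present in an extra copy in Down syndrome, among them App, Sod1, Runx1, Dyrk1a and Hmgn1. The same region holds a cluster of cytokine receptor genes, Ifnar2, Il10rb, Ifnar1 and Ifngr2. Genes elsewhere on the chromosome serve many unrelated functions, from ribosomal proteins to kinases and adhesion molecules.

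The profile along the chromosome had 3 break points, found by dividing the ordered members into stretches of at least 10 genes, so that each value lay close to the median of its stretch. The sequences just before transcription starts are shown for members at or near the outer breaks and for members of the raised block between them, as examples of the genes that the profile turns on. They are RefSeq sequence of GRCm38.p6, up to 250 bases before a start with exons removed, and the dinucleotide CG is in capitals. Nectin3 was the last member before the first break, and the run shown, chr16:46496968-46497217 on the minus strand, held 30 CG. Ift57 and Cd47 lay in the raised block that followed, with runs at chr16:49699044-49699232 and chr16:49855404-49855632 on the plus strand that held 16 and 23 CG. Robo1 preceded the third break and Rbm11 followed it, with runs at chr16:72662899-72663148 and chr16:75592641-75592843 on the plus strand that held 11 and 12 CG. Samsn1, also beyond the third break, had a run at chr16:75909311-75909516 on the minus strand that held 3 CG. The runs of Ift57 and Rbm11 lay in no annotated gene, and the others lay between exons of a longer transcript of the same gene.
Nectin3: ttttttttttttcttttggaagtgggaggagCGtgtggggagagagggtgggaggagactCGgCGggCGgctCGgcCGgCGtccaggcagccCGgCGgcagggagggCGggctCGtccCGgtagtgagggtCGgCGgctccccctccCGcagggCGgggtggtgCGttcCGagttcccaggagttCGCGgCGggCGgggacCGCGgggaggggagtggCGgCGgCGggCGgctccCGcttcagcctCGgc
Ift57: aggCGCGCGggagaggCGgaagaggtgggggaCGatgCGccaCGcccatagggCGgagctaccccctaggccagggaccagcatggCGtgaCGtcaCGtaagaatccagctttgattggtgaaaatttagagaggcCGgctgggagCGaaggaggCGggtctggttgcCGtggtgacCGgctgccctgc
Cd47: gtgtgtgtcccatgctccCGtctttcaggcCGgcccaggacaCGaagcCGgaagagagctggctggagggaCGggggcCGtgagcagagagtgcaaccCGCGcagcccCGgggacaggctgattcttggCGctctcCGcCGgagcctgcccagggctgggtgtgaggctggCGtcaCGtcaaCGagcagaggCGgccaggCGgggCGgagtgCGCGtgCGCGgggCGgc
Robo1: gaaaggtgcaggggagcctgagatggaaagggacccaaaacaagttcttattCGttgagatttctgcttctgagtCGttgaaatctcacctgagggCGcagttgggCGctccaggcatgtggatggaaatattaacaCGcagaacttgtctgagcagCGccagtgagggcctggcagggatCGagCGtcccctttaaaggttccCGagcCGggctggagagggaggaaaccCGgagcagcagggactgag
Rbm11: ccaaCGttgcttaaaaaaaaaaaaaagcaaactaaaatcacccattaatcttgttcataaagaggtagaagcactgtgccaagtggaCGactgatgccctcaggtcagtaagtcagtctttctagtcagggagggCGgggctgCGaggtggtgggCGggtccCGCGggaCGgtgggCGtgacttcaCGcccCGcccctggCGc
Samsn1: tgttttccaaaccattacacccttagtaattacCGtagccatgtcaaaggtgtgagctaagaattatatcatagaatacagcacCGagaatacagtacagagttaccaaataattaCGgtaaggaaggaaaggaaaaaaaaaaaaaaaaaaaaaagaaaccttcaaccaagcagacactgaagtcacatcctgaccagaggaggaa

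RefSeq windows were found for 312 of the 397 members. Over the full 250 bases before a start, exons kept, their median number of CG was 18, against 16 for the 9138 tested genes of other chromosomes with a window, and it was 17, 19, 15 and 23 in the 4 stretches from the centromere on. The 168 members with at most 18 CG had a median log2 fold change of -0.27, and the 144 members with more had -0.39, so the shift was present at both kinds of start. Searching for CG needs only one strand, since the dinucleotide reads the same on both.

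Most members were lower in AxR cells. The chromosome was chosen for its low median in this contrast, so the values and calls that follow are a description and carry no test of their own. Fold changes are AxR over P from edgeR, and a gene was called where its Benjamini-Hochberg adjusted p, taken over every tested gene, was below 0.05. The median log2 fold change of the members was -0.32, a fold of 0.801, with quartiles of -0.59 and -0.01, where the median of all tested genes was 0.01. Of the members, 301 (75.8%) lay below 0, against 49.3% of all tested genes. The test called 237 members (59.7%) lower and 60 members (15.1%) higher, and 100 were not called. Over all tested genes the corresponding shares were 30.6% lower and 32.9% higher. The lines did not overlap in 305 members (76.8%), against 68.1% of all tested genes. The median of chromosome 16 was the lowest of the 20 chromosomes with tested genes, and that of chromosome 1 followed at -0.29.

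The shift was alike in the 3 libraries of each line. Measured as the median over members of log2 CPM relative to the P libraries, it was -0.30, -0.32 and -0.35 in the AxR libraries and 0.01, -0.01 and 0.01 in the P libraries. Every AxR library thus lay far below every P library. Members made up 3.00% ± 0.049 (SD, n = 3) of the counts in P and 2.55% ± 0.034 (SD, n = 3) in AxR. Medians of log2 fold change were below 0 at every level and gene structure compared. They were -0.28, -0.35 and -0.32 in members of low, middle and high mean CPM, and -0.30, -0.36 and -0.34 in members of short, middle and long exon length. In members of low, middle and high GC content they were -0.25, -0.37 and -0.33, and on the plus and minus strands -0.32 and -0.33. Protein-coding members had a median of -0.34 and the 39 others -0.17.

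The chromosome was neither shifted as a whole nor altered in one place. Its members fell into 4 segments with medians of -0.30, 0.83, 0.00 and -0.63. In each AxR library the block of 11 genes was highest, followed by the third segment, the first and the last. The other chromosomes, divided in the same way, gave between 1 and 9 segments, so several segments were not particular to chromosome 16. Among segments of 30 genes or more, chromosome 13 held one lower than any on chromosome 16, at -0.70.

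**Figure D1:**
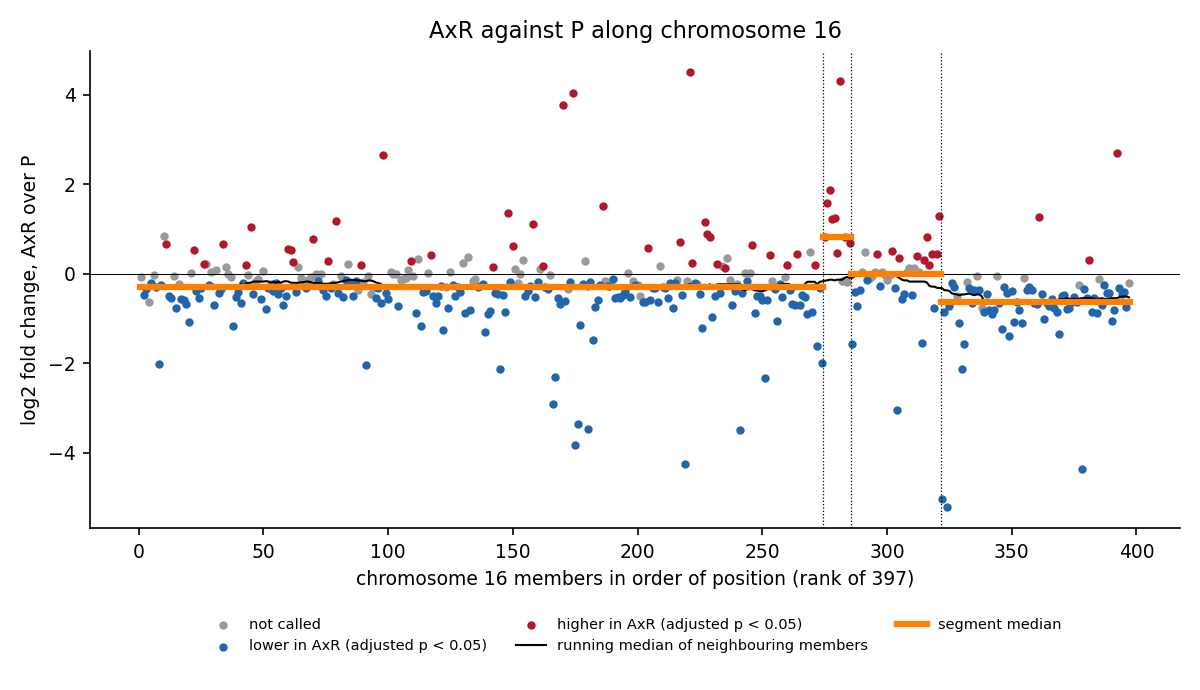
Log2 fold change of AxR over P for each of the 397 members (vertical axis) in order of position along chromosome 16 (horizontal axis, rank). Blue and red points were called lower and higher, grey points were not called, orange bars are segment medians of -0.30, 0.83, 0.00 and -0.63, dotted lines are the 3 break points, and the black line is a running median over 25 members on each side.

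Segment 1 ran from Zfp263 to Nectin3, positions 3744093 to 46498525, and held 274 members. Its median log2 fold change was -0.30, a fold of 0.811, with quartiles of -0.53 and -0.01. In it, 160 members were called lower, 38 were called higher and 76 were not called. Over all tested genes, 30.6% were called lower and 32.9% higher. The medians of the first 4 bins of 10 Mb were -0.30, -0.23, -0.29 and -0.32, so no slope along this stretch was visible at that scale. Its median in single libraries was -0.28, -0.31 and -0.32 in AxR and between 0.00 and 0.01 in P. Zfp263, a zinc finger gene and the first member on the chromosome, had 38.0, 37.7 and 36.5 CPM in P and 34.5, 35.9 and 36.4 CPM in AxR, and was not called. Crebbp, the CBP histone acetyltransferase, had 184, 182 and 186 CPM in P and 128, 128 and 123 CPM in AxR, and was called lower with a log2 fold change of -0.54 (SE 0.048).

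The first break lay between Nectin3 and the pseudogene Gm7204, which are 1.72 Mb apart, and no other protein-coding gene was annotated between them. Nectin3, a cell adhesion molecule of the nectin family, had 81.7, 77.5 and 84.6 CPM in P and 21.01, 20.97 and 18.8 CPM in AxR. The lines did not overlap, and its log2 fold change of -2.01 (SE 0.069) was far below the segment median. The member before it, Gm4737, had a log2 fold change of -0.33 (SE 0.056), close to that median.

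Segment 2 was a short raised block of 11 members, from Gm7204 to Cblb, positions 48218605 to 52208048. Its median log2 fold change was 0.83, a 1.77-fold rise, and 9 members were called higher, none lower and 2 not at all. Over all tested genes, 30.6% were called lower and 32.9% higher. The median of the block is the value of the pseudogene Gm7204, which is uncertain, as described below. The share of library counts held by the 11 members went from 0.113% ± 0.0054 in P to 0.246% ± 0.0067 in AxR (SD, n = 3 each). Cip2a, an inhibitor of the phosphatase PP2A, had 109.9, 111 and 120.5 CPM in P and 464, 409 and 381 CPM in AxR, a log2 fold change of 1.88 (SE 0.069). Its neighbour Dzip3, an RNA-binding ubiquitin ligase, had 78.4, 71.1 and 76.4 CPM in P and 238, 226 and 214 CPM in AxR, with a log2 fold change of 1.59 (SE 0.058). The annotated RefSeq starts of this pair lie 46 bases apart and point away from each other. Dzip3 starts at 48994142 on the minus strand and Cip2a at 48994188 on the plus strand. Which starts these cells use was not tested.

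Ift57, a subunit of the intraflagellar transport complex of cilia, had 36.8, 34.96 and 36.7 CPM in P and 88.7, 78.7 and 86.3 CPM in AxR. Cd47, the surface protein that signals to phagocytes through SIRPα, had 547, 478 and 513 CPM in P and 1219.5, 1253 and 1176 CPM in AxR, a log2 fold change of 1.25 (SE 0.054). Cd47 was among the 5 members with the highest mean CPM per kb of exon, at 138. The upstream runs of both genes, shown above, are CG-rich. Bbx, a gene of the HMG-box family, rose by less, from 267, 248 and 266 CPM to 379, 372 and 326 CPM. The noncoding RNA G730013B05Rik had 0.122, 0.115 and 0.326 CPM in P and 3.87, 3.76 and 3.71 CPM in AxR, and the noncoding RNA Dubr had 37.5, 38.5 and 37.4 CPM in P and 71.2, 67.1 and 60.7 CPM in AxR. Both were called higher and did not overlap between the lines. G730013B05Rik met the count limit through AxR libraries alone, so its rise was fixed by that limit.

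Cblb, a ubiquitin ligase that restrains receptor signalling, closed the block with 45.1, 42.6 and 42.9 CPM in P and 65.3, 76.3 and 68.6 CPM in AxR, a log2 fold change of 0.69 (SE 0.067). The 2 exceptions were the processed pseudogenes Gm9575 and Gm6767, with log2 fold changes of -0.16 (SE 0.14) and -0.18 (SE 0.11), neither called. The processed pseudogene Gm7204 was called higher, from 4.32, 4.67 and 3.71 CPM to 7.74, 8.86 and 6.10 CPM. Reads of processed pseudogenes can be shared with their parent genes, so these 3 values are uncertain.

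**Figure D2:**
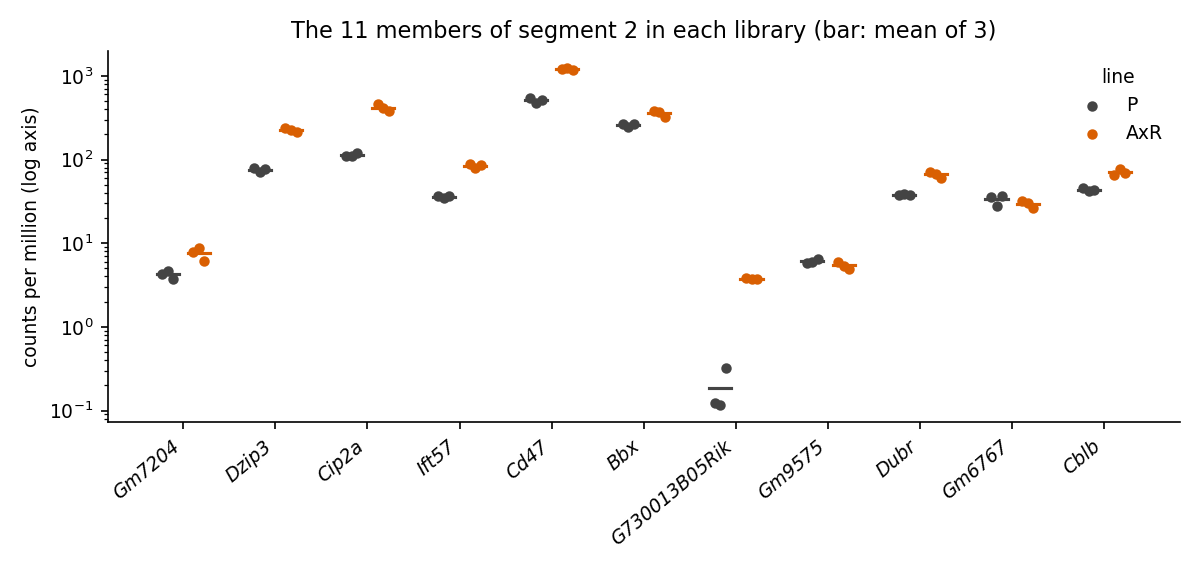
CPM of the 11 members of segment 2 (horizontal axis, in order of position) in each library on a log axis, with P in grey, AxR in orange and a bar at the mean of 3. The 3 AxR libraries lay above the 3 P libraries for 9 genes and not for Gm9575 and Gm6767.

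The second break was the narrowest, with 0.0409 Mb between Cblb and Alcam, and no other protein-coding gene was annotated between them. Alcam, an adhesion molecule of the immunoglobulin superfamily, had 134, 109.2 and 128 CPM in P and 43.5, 43.8 and 37.3 CPM in AxR. Its log2 fold change of -1.57 (SE 0.083) contrasted with the 0.69 of Cblb. Nfkbiz, an inducible regulator of NF-κB, came next and was called lower at -0.42 (SE 0.10).

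Segment 3, from Alcam to Robo1, positions 52248996 to 73046095, held 36 members around a median of 0.00. It had 13 members called lower, 10 called higher and 13 not called, shares close to the 30.6% lower and 32.9% higher of all tested genes. Its AxR library medians were -0.03, -0.06 and 0.00 and its P library medians 0.03, -0.08 and 0.05, so the lines overlapped. Rpl24, a protein of the large ribosomal subunit and the member with the highest level per kb of exon, had 373, 362 and 369 CPM in P and 380, 370 and 379 CPM in AxR. Its log2 fold change was 0.03 (SE 0.044) and it was not called. Col8a1, a chain of collagen VIII, rose from 508 ± 15.6 to 717 ± 27.9 CPM (SD, n = 3 each). St3gal6, a sialyltransferase, was the strongest exception, with 42.4, 40.6 and 46.2 CPM in P and 6.16, 4.85 and 4.68 CPM in AxR, a log2 fold change of -3.04 (SE 0.10).

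The third break lay between Robo1 and Rbm11, which are 2.55 Mb apart, with 2 annotated protein-coding genes between them that were not members. Robo1, a receptor for Slit guidance proteins, was low in both lines, at 0.790, 0.577 and 0.586 CPM in P and 1.33, 2.42 and 1.08 CPM in AxR, and was called higher. Gbe1, the glycogen branching enzyme and the member before it, rose from 20.2 to 27.5 CPM on average, with a log2 fold change of 0.44 (SE 0.080). Rbm11, an RNA-binding splicing regulator, had 36, 29 and 13 counts in the P libraries and 1, 1 and 0 in the AxR libraries. Against a floor of 3 counts per library it was at least 8.03-fold lower. Samsn1, an adaptor protein best known in lymphocytes, had 75, 63 and 61 counts in P and 2, 0 and 3 in AxR, at least 20.8-fold lower. Rbm11 and Samsn1 met the count limit through P libraries alone, so both had to be lower. Between these 2 genes, Hspa13 of the HSP70 family fell from 87.8, 76.2 and 91.2 CPM to 49.4, 49.5 and 43.1 CPM.

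Segment 4 ran from Rbm11 to B230307C23Rik, the last member, positions 75592844 to 98031801, and held the lowest median of the 4. Its 76 members had a median log2 fold change of -0.63, a fold of 0.646, with quartiles of -0.83 and -0.36. Of these, 73 (96.1%) lay below 0, 64 were called lower, 3 were called higher and 9 were not called. Over all tested genes, 49.3% lay below 0, 30.6% were called lower and 32.9% higher. The library medians of segment 4 were -0.55, -0.58 and -0.61 in AxR and within 0.01 of 0 in P. The share of library counts went from 0.654% ± 0.014 in P to 0.404% ± 0.0069 in AxR (SD, n = 3 each). The median was below 0 in each class of level, exon length and GC content, and ranged from -0.44 in GC-rich to -0.76 in GC-poor members, and from -0.49 in short to -0.76 in long ones.

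**Figure D3:**
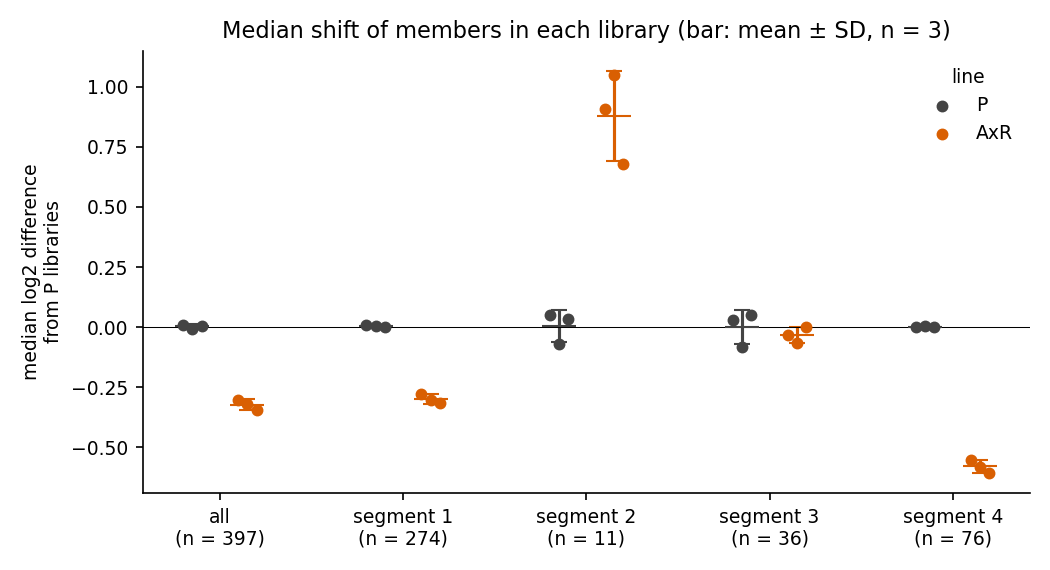
Median over members of log2 CPM relative to P libraries (vertical axis) for all members and each segment (horizontal axis), with 1 point per library and bars at the mean ± SD (n = 3). Each P library was compared with the other 2 P libraries; AxR libraries lay below P for all members and for segments 1 and 4, above P for segment 2, and overlapped P for segment 3.

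Many widely expressed genes of this far segment fell, by differing amounts. Hmgn1, a nucleosome-binding protein, had 547, 538 and 530.0 CPM in P and 266, 257 and 258 CPM in AxR, a log2 fold change of -1.05 (SE 0.045). Son, a splicing cofactor, fell from 568 ± 15.1 to 334 ± 20.2 CPM, and Cct8, a subunit of the cytosolic chaperonin, from 444 ± 15.1 to 254 ± 7.17 CPM (SD, n = 3 each). Dyrk1a, a dual-specificity kinase, had 153, 156 and 153 CPM in P and 97.3, 89.6 and 96.8 CPM in AxR, and the transcription factor Runx1 fell from 158 ± 3.82 to 102 ± 2.71 CPM. App, the amyloid precursor protein, and Sod1, a superoxide dismutase, were called lower by less, with log2 fold changes of -0.37 (SE 0.058) and -0.29 (SE 0.052). For each of these genes the 3 AxR libraries lay below the 3 P libraries.

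Exceptions within segment 4 were few. The only members above 0 were Mx2, Gm7856 and Chaf1b, and all of them were called higher. Mx2, an interferon-induced antiviral GTPase, had 2, 2 and 2 counts in P and 12, 12 and 17 in AxR, at least 4.26-fold higher. Mx2 met the count limit through AxR libraries alone, so it had to be higher. Chaf1b, a subunit of chromatin assembly factor 1, had 19.8, 21.3 and 18.5 CPM in P and 25.6, 25.5 and 23.2 CPM in AxR. At the other extreme, Cbr1, a carbonyl reductase, had 7.66, 7.90 and 8.79 CPM in P and 0.254, 0.319 and 0.570 CPM in AxR. Btg3, an antiproliferative gene, had 63.9, 47.0 and 59.3 CPM in P and 14.9, 10.5 and 13.2 CPM in AxR, a log2 fold change of -2.14 (SE 0.14). Btg3 overlaps Cxadr, the coxsackievirus and adenovirus receptor, on the opposite strand, and Cxadr also fell, from 588 ± 67.5 to 273 ± 3.44 CPM (SD, n = 3 each). The strand setting of the counting is not given in the sources used here, so reads of this pair may not be fully separated.

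**Figure D4:**
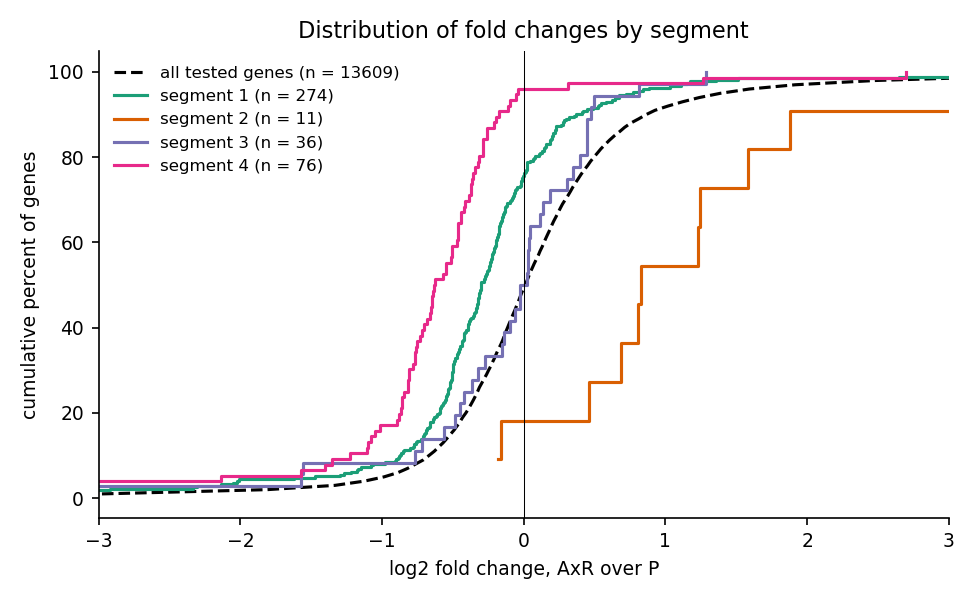
Cumulative percent of genes (vertical axis) against log2 fold change of AxR over P (horizontal axis, drawn from -3 to 3) for each segment and for all 13609 tested genes (dashed). The curves of segments 1 and 4 lie to the left of the dashed line over most of their length, that of segment 3 follows it near its median of 0.00, and that of segment 2 lies to the right.

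Over the chromosome, 192 members (48.4%) lay within 0.25 of their segment median and 294 (74.1%) within 0.5. A departure of more than 1 was seen in 42 members (10.6%), 20 above and 22 below. Among all tested genes, 12.2% departed that far from the median of their own chromosome. The segments were fitted to these same values and the other chromosomes were not divided here, so these shares are not measured alike. The highest log2 fold change among members with at least 10 CPM in the higher line was that of Mylk, the myosin light chain kinase of smooth muscle. It had 1.64, 0.808 and 1.37 CPM in P and 30.5, 29.5 and 26.2 CPM in AxR, a log2 fold change of 4.50 (SE 0.16). Emp2, an epithelial membrane protein, rose from 213 ± 3.75 to 437 ± 18.3 CPM (SD, n = 3 each). Itgb5, the integrin β5 chain, went from 119 ± 1.05 to 195 ± 2.43 CPM (SD, n = 3 each) and was called higher.

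The strongest fall among members with at least 10 CPM in the higher line was that of P3h2. P3h2, a collagen prolyl hydroxylase, had 11.7, 11.8 and 10.8 CPM in P and 1.14, 1.02 and 1.14 CPM in AxR, a log2 fold change of -3.36 (SE 0.16). An antisense gene, Gm4524, overlaps P3h2, and since the strand setting of the counting is not given in the sources used here, their reads may not be fully separated. St6gal1, a second sialyltransferase, had 122, 116 and 123 CPM in P and 24.2, 25.9 and 23.0 CPM in AxR. Arhgap31, which inactivates Rac and Cdc42, had 63.8, 72.9 and 73.7 CPM in P and 14.9, 12.2 and 14.5 CPM in AxR. Nlrc3, an inhibitory NOD-like receptor, and Plcxd2 had log2 fold changes of -2.02 (SE 0.12) and -1.62 (SE 0.11).

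Of the 5 members with the highest level per kb of exon, Rsl1d1, a ribosome biogenesis factor, was called lower at a log2 fold change of -0.31 (SE 0.056). The pseudogenes Gm9843 and Rps10-ps2 were called lower at -0.20 (SE 0.065) and -0.18 (SE 0.061), and their reads may be shared with the ribosomal protein genes that they copy. B230307C23Rik, the last member, had a log2 fold change of -0.21 (SE 0.24) and was not called.

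Grouped by role, the members of 8 lists all had medians below 0, between -0.12 for adhesion and junctions and -0.54 for transcription factors and coregulators. The call counts of each list stand against 30.6% called lower and 32.9% called higher among all tested genes. Interferon-induced genes and cytokine receptors had 5 of 13 members called higher, a share near that background, and 7 called lower. Mx2, among the 5, had to be higher by the count limit. The median of the list was -0.36, and -0.15 with no low-count filter, which admits more genes of the list. Of the induced genes, Rtp4 had 1.76, 1.62 and 0.847 CPM in P and 18.8, 22.4 and 17.3 CPM in AxR, a log2 fold change of 3.77 (SE 0.18). The neighbours Parp14, Dtx3l and Parp9, which act in ADP-ribosylation and ubiquitination, were called higher at 1.15, 0.89 and 0.81. Of the receptors, Ifnar1 had 89.3, 91.2 and 90.5 CPM in P and 54.8, 56.5 and 57.7 CPM in AxR, and Ifnar2 fell from 44.7 ± 1.89 to 34.9 ± 0.292 CPM (SD, n = 3 each). Together they form the receptor for type I interferons. Ifngr2, a chain of the interferon γ receptor, and Il10rb, a chain of the interleukin 10 receptor, had log2 fold changes of -0.46 and -0.65. The 4 receptor genes lie next to each other in segment 4, and their log2 fold changes ran from -0.68 to -0.36, where the segment median was -0.63. Mx1, Ciita, Cd80 and Cd86 did not reach the count limit.

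**Figure D5:**
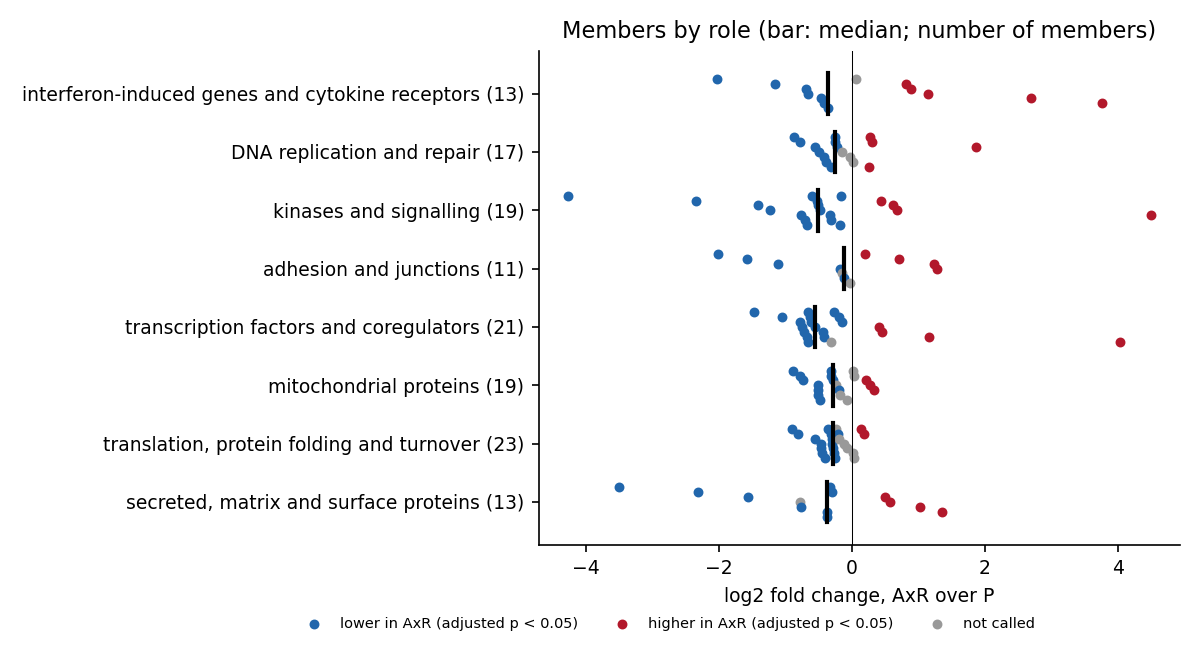
Log2 fold change of AxR over P (horizontal axis) for the members of 8 lists by role (vertical axis, number of members in brackets), coloured by call, with a black bar at the list median. All 8 medians are below 0, and the list of interferon-induced genes and cytokine receptors holds both strong rises and falls.

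Among 17 genes of DNA replication and repair, 10 were called lower and 4 higher, with a median of -0.25. The 4 were Cip2a, Chaf1b, the replicative helicase subunit Mcm4 (log2 fold change 0.28) and the nuclease subunit Ercc4 (0.26). Donson, a replication fork factor, fell from 30.7 to 16.9 CPM on average, and Prkdc, the catalytic subunit of the DNA-dependent protein kinase, had a log2 fold change of -0.32. Among 19 kinases and signalling genes, 15 were called lower and 4 higher, with a median of -0.51. Kalrn, a guanine nucleotide exchange factor, had 40, 32 and 31 counts in P and 2, 2 and 1 in AxR, at least 10.7-fold lower. As Kalrn met the count limit through P libraries alone, it had to be lower. Tiam1, an activator of Rac, and Pak2, a kinase that Rac activates, had log2 fold changes of -1.23 and -0.47. Ephb3, an ephrin receptor, was called higher at 0.62.

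Among 21 transcription factors and coregulators, 16 were called lower and 4 higher, with a median of -0.54. Those called higher were Trp63, Cebpd, Bbx and Zbtb20. Trp63, the p63 factor of basal epithelium, had 2, 0 and 1 counts in P and 15, 17 and 23 in AxR, at least 5.71-fold higher. Since Trp63 met the count limit through AxR libraries alone, it had to be higher. Hes1, a Notch target, fell from 22.5 ± 1.09 to 8.10 ± 0.284 CPM (SD, n = 3 each). Gabpa, Bach1, Nrip1 and Zbtb21, all in segment 4, had log2 fold changes between -0.75 and -0.65. The 11 adhesion genes ran from -2.01 for Nectin3 to 1.29 for Robo1, with 5 called lower and 4 higher, the latter again a share near the background.

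Mitochondrial proteins and genes of translation, protein folding and turnover had narrower ranges than the other lists. Of 19 mitochondrial proteins, 11 were called lower and 3 higher, with a median of -0.27 and a range from -0.89 for Prodh, proline dehydrogenase, to 0.34 for Cpox, an enzyme of haem synthesis. Of 23 genes of translation, protein folding and turnover, 15 were called lower and 2 higher, with a median of -0.28 and a range from -0.89 for Usp16, a deubiquitinase, to 0.18 for Dnajb11, a chaperone of the endoplasmic reticulum. Eif4g1, the scaffold of the cap-binding complex, fell from 961 to 699 CPM on average. Of 13 secreted, matrix and surface proteins, 8 were called lower and 4 higher, with a median of -0.37, and of -0.14 with no low-count filter. This list had a wide range, from -3.49 for Fstl1 to 1.36 for Chrd. Tfrc, the transferrin receptor, rose from 167 ± 8.82 to 250 ± 34.4 CPM (SD, n = 3 each). Fstl1, a secreted glycoprotein that was called lower, had 66, 67 and 84 counts in P and 6, 1 and 12 in AxR. All 8 lists were drawn from chromosome 16, which was chosen for its low median.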

How the data were processed

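The authors extracted RNA from 3 P and 3 AxR samples of 4T1 cells, made stranded poly(A) libraries, checked reads with FastQC 0.11.5, aligned them to GRCm38 with STAR 2.6.0a and the M16 release of GENCODE, and deposited estimated counts per gene from RSEM 1.3.1, which divides ambiguous reads among genes by likelihood. These values were rounded before testing. Genes with at least 10 counts in at least 3 libraries were fitted in edgeR 4.0.16 (R 4.3.3) after upper quartile normalization, using its quasi-likelihood test with line as the only term and Benjamini-Hochberg adjustment over 13609 genes. CPM were scaled by normalized library size. Depth was 15495260 to 17294525 counts per library, where 3 counts correspond to 0.171 to 0.195 CPM; floors cover counting error only. Groups and replicate numbers came from sample titles, and same-numbered libraries did not deviate together, so no pairing was used.

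Positions, exon lengths and GC content were taken from GENCODE M21, a later release on the same build, which held 53274 of 53465 identifiers. Break points minimized absolute deviations from segment medians, with values held within 2 of the chromosome median, a penalty of the log of the number of members per break, and at least 10 members a segment. Upstream sequences came from RefSeq, GRCm38.p6. Scripts were tested on simulated data, as a check of the code. The simulated segments were set close to those found here, so that check lends the break points no support. The members and lists were chosen with earlier results of these data known. Named genes were the 8 highest and 8 lowest log2 fold changes at 10 CPM or more without overlap, 2 members on each side of each break, the first and last members, the 5 most abundant per kb, list members and those at the count limit. Other genes of segment 2, and Samsn1, Cbr1, Gm7856 and Gm4524, were named after their values were seen. Alternatives were TMM, library size only, DESeq2 1.42.0, other count filters, a replicate block, each library left out, other thresholds and other segmentation settings.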

Additional observations from a re-analysis of the deposited data

How the results depend on the processing

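The median of the members was -0.34 with scaling by library size only, -0.26 with no low-count filter and -0.21 from their summed counts, and its difference from the median of all tested genes was -0.33 under each scaling tried. It was between -0.34 and -0.31 as each library was left out. Where a log2 fold change of 1 or more in size was also required, 38 of the 397 members were called lower and 18 higher. The corresponding counts among all 13609 tested genes were 641 and 1104. DESeq2 made 277 calls among members, 275 of them shared with the 297 of edgeR, and a replicate block gave 291 calls, 289 shared, and a median of -0.32. Deviations of same-numbered libraries had correlations of 0.03, -0.12 and -0.30. Libraries of different numbers were not compared in this way, so these values cannot exclude a pairing. Bins of 5 Mb had medians below 0 in 16 cases, and bins of 10 Mb in 9 of 10.

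The same 3 break points were found under TMM, library size only, DESeq2, filterByExpr, the replicate block and each library left out. With the penalty doubled 1 break remained, between Robo1 and Rbm11. With the penalty halved another break appeared, between Pla1a and Adprh. The raised block ended at G730013B05Rik with a minimum of 5 genes, and it merged with segment 3 at a minimum of 20 genes or among protein-coding members only. With 11 members, 6 of them protein-coding, the block was below the minimum size in both of the latter settings. Those 2 settings therefore could not show whether it holds. Filtering at 10 counts in every library, which drops Rbm11 and Samsn1, moved the third break to Chmp2b and Vgll3. With no low-count filter all 3 breaks moved, and the third again lay between Chmp2b and Vgll3. The first then lay between Dppa2 and Morc1, and the second between Ccdc54 and Gm9575. The cause was not tested. No named gene that was called changed sign, and 46 of 1979 comparisons of named genes with an alternative lost the call while 9 gained one. Calls were lost for Dlg1, Psmd2 and Zbtb11, among others, which had small fold changes, and for Chrd, which had few counts. Depth limits Rbm11, Samsn1, Kalrn, Trp63 and Mx2, whose folds are bounds, and pseudogenes, whose reads may be shared.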
